A study of Mus musculus with 6 samples.

Results

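The genes described here are 48 genes of mitosis, chosen by name with earlier results of these data known. They encode the chromosome surface protein Ki-67 and topoisomerase II alpha, condensin, the kinetochore and its checkpoint, and the mitotic kinases. Others encode the spindle motors, the proteins of anaphase and cytokinesis, and the centriole duplication machinery. All 48 were among the 53647 genes of the deposited table, each as a single row, and all 48 passed the filter on low counts that left 16031 genes for testing. RNA was measured by sequencing in macrophages sorted from pancreatic tumours of C57BL/6 mice, an orthotopic model of pancreatic ductal adenocarcinoma in which the tumour grows in the pancreas itself. There were 3 libraries of Cxcr4+ macrophages and 3 of Cxcr4- macrophages, where Cxcr4 is the surface receptor for the chemokine Cxcl12 on which the cells were sorted. The labels list this sort state as a genotype, and no engineered allele, drug, time, age or tumour cell line was given for either group. Nothing says if each library is a mouse of its own or a pool of animals, so the p-values reflect spread among libraries that may be technical.

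At mitosis condensin compacts the chromosomes, kinetochores assembled on the centromeres catch spindle microtubules, and the spindle checkpoint holds the cell until every kinetochore is attached. The anaphase-promoting complex then marks securin and cyclin B for destruction, separase cuts the cohesin that holds sister chromatids, and the central spindle sets the place where the cell divides. Most of these genes are transcribed in G2 and M phase and are nearly silent in resting cells, so in a bulk sample their RNA can follow the cycling cells. The share of cycling cells was not measured here. Macrophages in tumours are replenished by blood monocytes and can also divide in the tissue.

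The libraries held 46444934 to 55740671 estimated counts, each Cxcr4+ library more than any Cxcr4- library, and the 48 genes had 289 to 13216 counts in a library. FPKM is the authors' fragment count scaled for transcript length and library size, and levels are given in it throughout. Of the listed macrophage markers, Lyz2 stood at 5337 to 7797 FPKM, Cd68 at 1024 to 1247 and Csf1r at 70.1 to 94.5 over the 6 libraries. Of the 8 listed, 4 were positive and 4 negative in log2 fold change. Fcgr1 was at 0.52, Adgre1 at -0.11 and Itgam at -0.02, all with overlap. Mertk was lower in Cxcr4+ libraries without overlap, at 1.34 to 1.79 FPKM in Cxcr4+ and 1.88 to 2.02 FPKM in Cxcr4- libraries, while C1qa was at 0.361 to 0.435 FPKM in Cxcr4+ and 0 to 0.137 FPKM in Cxcr4- libraries. The libraries numbered 2 stood apart from the others in both groups, which is described for these genes below.

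All 48 mitotic genes were higher in Cxcr4+ macrophages in the fitted log2 fold change (Cxcr4+ minus Cxcr4-), but by small amounts, and none passed the test across all genes. Their median was 0.36, with a range of 0.0048 for Incenp to 0.59 for Nek2, beside a median of 0.00041 over the 16031 genes tested, of which 50.1% were positive. By edgeR's quasi-likelihood test with Benjamini-Hochberg adjustment 0 of 48 had an adjusted p under 0.05, beside 0.0125% of all genes called higher and 0.0312% called in either direction, and the lowest adjusted p among the 48 was 0.350, for Ube2c. At an unadjusted p under 0.05 there were 23 of 48 genes, all higher in Cxcr4+, where 2.66% of all genes tested were. In FPKM, 20 of 48 had every Cxcr4+ library above every Cxcr4- library, beside 5.50% of all genes, and 0 had the reverse, beside 4.87%. On counts scaled for library size by TMM the number was 24 of 48, beside 5.84%. DESeq2 called 7 of 48 higher, beside 0.187% of the genes to which it gave an adjusted p. These were Ube2c, Ncapg, Dlgap5, Sass6, Nek2, Ttk and Cdca8, with DESeq2 adjusted p of up to 0.0442, for Cdca8. Limma on log2(FPKM + 1) called 0 of 48, where it called 2 of all 16031 genes. Leaving out Cxcr4+ replicate 3 left 13 genes at an unadjusted p under 0.05, beside 1.84% of the genes of that fit, and leaving out Cxcr4- replicate 1 left 14, beside 2.15%. With the replicate number as a block there were 35, beside 4.93% of all genes, and with the libraries numbered 2 as a block also 35, beside 4.99%. Because the genes were chosen with earlier results of these data known, these shares describe the list and are no independent test.

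Summed over the 48 genes, the level was 463, 530 and 502 FPKM in Cxcr4+ libraries, against 390, 417 and 426 FPKM in Cxcr4- libraries. Every Cxcr4+ library lay above every Cxcr4- library in this sum. Set against each gene's mean over the Cxcr4- libraries, 41, 47 and 43 of the 48 genes lay above it in Cxcr4+ libraries 1, 2 and 3, and 7, 26 and 30 in Cxcr4- libraries 1, 2 and 3. The median gene stood at 0.21, 0.44 and 0.36 on the log2 scale in the Cxcr4+ libraries, and at -0.09, 0.05 and 0.03 in the Cxcr4- libraries. In the sum and for the median gene, Cxcr4- replicate 1 was thus the lowest of its group and Cxcr4+ replicate 1 the lowest of its own. This did not hold within every structure, such as the centriole genes. In bulk libraries fewer cycling cells and less RNA per cycling cell cannot be told apart.

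**Figure D1:**
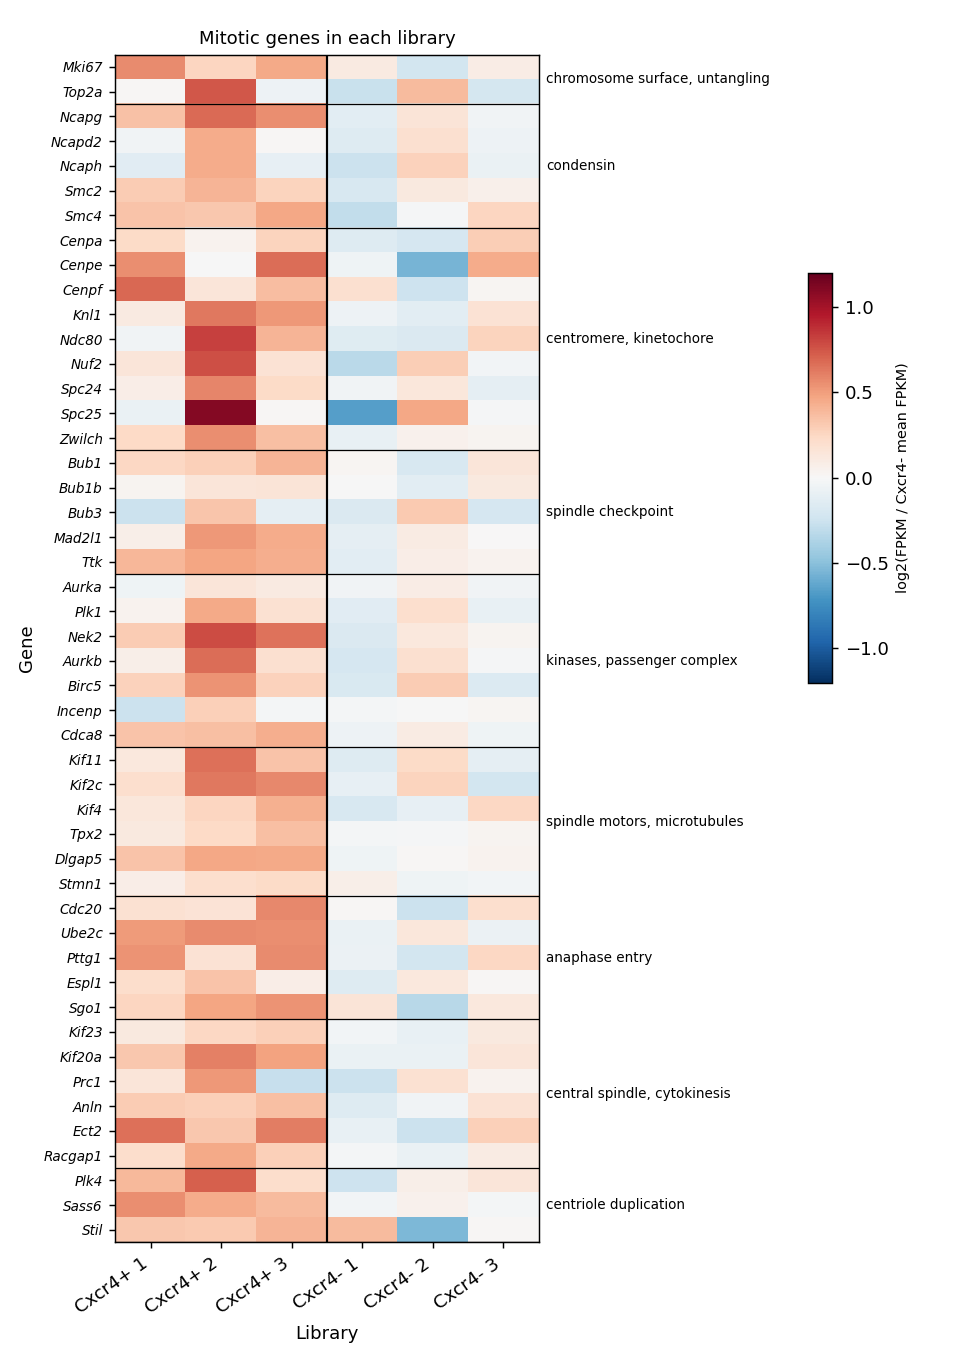
Each row is a gene and each column a library, with the Cxcr4+ libraries on the left; colour gives log2 of the FPKM over the gene's mean FPKM in the 3 Cxcr4- libraries, and rows are grouped by structure. Cxcr4+ columns are mostly red, with 41, 47 and 43 of 48 genes above the Cxcr4- mean, and the columns of the libraries numbered 2 differ from the rest of their group in opposite directions for Top2a and Cenpe.

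The promoters of these genes are shown because the genes were positive in fold change together and are known to share short promoter elements. RefSeq's promoter table (build GRCm38.p6, 250 bases before to 50 bases after each start) held 42 promoters for 39 of the 48 genes. The motif TTTGAA is the core of the cell cycle genes homology region, which in human and mouse cells is bound by MuvB complexes that repress these genes in resting cells and activate them in G2 and M. The motif CCAAT is bound by the factor NF-Y. Searched on both strands, TTTGAA occurred in 31 of the 42 promoters (73.8%), beside 17.9% of all 32851 promoters of the same length, and CCAAT in 31 of 42 (73.8%), beside 37.4%. Both motifs stood in 26 of 42 (61.9%), beside 6.95% of all promoters. The variant TTCGAA, which reads the same on both strands, occurred in 4 of 42 (9.52%), beside 1.56%. From 60 bases before the start to 40 after it, TTTGAA began in 25 of 42 (59.5%), beside 5.28%. For the promoters of 111 other mitotic genes the share with TTTGAA was 38.0% (49 of 129), and for those of 32 DNA replication genes it was 12.8% (5 of 39). A match is a string of letters in this window and not a measured site.

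The 250 bases before the start are printed 5′ to 3′ on the gene's strand for 6 genes: Mki67 and Top2a, the usual marks of cycling cells, Cdc20 as the activator of anaphase, and Ube2c, Ncapg and Sass6, which had among the lowest p-values. Capitals mark the motif TTTGAA or its reverse complement, the variant TTCGAA, and the NF-Y motif CCAAT or its reverse complement, and overlapping motifs run together. Coordinates are those of GRCm38.p6, which is not the build of the deposited table.
Ube2c, chr2:164769679-164769928, forward strand: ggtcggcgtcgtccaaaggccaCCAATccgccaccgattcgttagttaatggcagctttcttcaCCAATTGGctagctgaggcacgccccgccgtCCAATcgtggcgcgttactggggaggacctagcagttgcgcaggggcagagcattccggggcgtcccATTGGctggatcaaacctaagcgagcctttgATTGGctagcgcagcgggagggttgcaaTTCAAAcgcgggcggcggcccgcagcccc
Ncapg, chr5:45669675-45669924, forward strand: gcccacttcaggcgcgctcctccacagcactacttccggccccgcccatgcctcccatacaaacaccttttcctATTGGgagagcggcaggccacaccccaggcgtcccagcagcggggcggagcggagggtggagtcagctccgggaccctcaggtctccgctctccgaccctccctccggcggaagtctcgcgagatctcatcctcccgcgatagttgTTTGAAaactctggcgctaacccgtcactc
Mki67, chr7:135716380-135716629, reverse strand: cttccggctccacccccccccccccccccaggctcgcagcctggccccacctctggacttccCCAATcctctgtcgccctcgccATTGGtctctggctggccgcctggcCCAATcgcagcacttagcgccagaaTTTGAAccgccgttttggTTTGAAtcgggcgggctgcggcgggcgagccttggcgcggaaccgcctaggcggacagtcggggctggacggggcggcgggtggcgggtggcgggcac
Top2a, chr11:99024190-99024439, reverse strand: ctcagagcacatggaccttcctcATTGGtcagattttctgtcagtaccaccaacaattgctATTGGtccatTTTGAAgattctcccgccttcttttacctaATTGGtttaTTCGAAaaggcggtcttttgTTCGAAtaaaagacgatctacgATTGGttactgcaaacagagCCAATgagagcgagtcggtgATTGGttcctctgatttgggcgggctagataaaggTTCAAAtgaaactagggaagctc
Cdc20, chr4:118437344-118437593, reverse strand: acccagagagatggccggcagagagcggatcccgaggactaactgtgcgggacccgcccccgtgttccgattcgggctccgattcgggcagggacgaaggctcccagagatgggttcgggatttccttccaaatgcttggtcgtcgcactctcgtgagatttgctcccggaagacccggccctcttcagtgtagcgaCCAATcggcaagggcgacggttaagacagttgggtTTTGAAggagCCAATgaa
Sass6, chr3:116594708-116594957, forward strand: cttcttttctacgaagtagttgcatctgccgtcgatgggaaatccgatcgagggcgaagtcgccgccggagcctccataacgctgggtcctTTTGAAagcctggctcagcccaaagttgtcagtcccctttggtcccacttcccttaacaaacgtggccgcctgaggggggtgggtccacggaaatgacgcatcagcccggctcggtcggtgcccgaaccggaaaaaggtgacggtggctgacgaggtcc
Ube2c held 6 CCAAT motifs and a TTTGAA on the reverse strand that begins 29 bases before the start, and Ncapg had TTTGAA 30 bases before its start. All these motifs occurred in Top2a, each more than once. The TTTGAA of Cdc20 began 18 bases before the start, while that of the centriole gene Sass6 was farther away, at 159 bases, and Sass6 had no CCAAT in this window.

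At the chromosome, Mki67 encodes Ki-67, the coat of mitotic chromosomes used everywhere as a mark of cycling cells, and Top2a the topoisomerase that untangles sister DNA. Mki67 (chromosome 7, 135291513 to 135318090, reverse strand, GRCm39 as for all gene positions from the table) had 20.8, 16.8 and 19.3 FPKM in Cxcr4+ libraries, against 15.1, 12.1 and 14.9 FPKM in Cxcr4- libraries. The groups did not overlap, and the library numbered 2 was the lowest in both. The log2 fold change was 0.43 (SE 0.15). Top2a (chromosome 11, 98883769 to 98915015, reverse strand) had 13.2, 22.0 and 12.6 FPKM in Cxcr4+ libraries, against 10.9, 17.1 and 11.3 FPKM in Cxcr4- libraries. Here the groups overlapped, with the libraries numbered 2 far above the others in both, and the log2 fold change of 0.27 (SE 0.22) was close to its error. It was 0.02 without Cxcr4+ replicate 2.

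Condensin consists of the paired ATPases Smc2 and Smc4 with the non-SMC subunits Ncapd2, Ncapg and Ncaph in condensin I. Ncapg (chromosome 5, 45827261 to 45857888, forward strand) had 5.49, 6.92 and 6.33 FPKM in Cxcr4+ libraries, against 3.95, 4.797 and 4.18 FPKM in Cxcr4- libraries. Its groups did not overlap and the log2 fold change was 0.53 (SE 0.10) with an adjusted p of 0.598 by edgeR. Smc2 had 8.26, 8.89 and 8.06 FPKM in Cxcr4+ libraries, against 5.86, 7.24 and 6.96 FPKM in Cxcr4- libraries. Smc4 had 23.9, 23.6 and 26.1 FPKM in Cxcr4+ libraries, against 15.3, 18.6 and 22.6 FPKM in Cxcr4- libraries. For both ATPase genes the lowest Cxcr4+ library lay above the highest Cxcr4- library, with log2 fold changes of 0.33 and 0.38. The other subunits of the same complex were nearer to 0, at 0.15 (SE 0.12) for Ncapd2 and 0.09 (SE 0.17) for Ncaph, and their groups overlapped. Of the 5 condensin genes 3 had an unadjusted p under 0.05, and the median of the 5 was 0.33. For this and the structures below, the shares over all genes were 2.66% higher at that p and 5.5% higher without overlap.

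Ratios between condensin subunits were taken within each library. The ratio of Ncapg to Ncaph FPKM was 0.787, 0.665 and 0.888 in Cxcr4+ libraries, against 0.617, 0.517 and 0.578 in Cxcr4- libraries, without overlap. That of Ncapg to Ncapd2 was 0.578, 0.520 and 0.638 in Cxcr4+ libraries, against 0.447, 0.429 and 0.445 in Cxcr4- libraries, again without overlap. The ratio of Smc4 to Smc2 averaged 2.93 ± 0.291 in Cxcr4+ and 2.82 ± 0.376 in Cxcr4- libraries (SD, n = 3 each), and overlapped. Such ratios do not depend on how libraries are scaled. They were formed for 14 pairs of partners chosen after the values were known and are given without a test. The groups overlapped in 10 of these pairs and were apart in 4, and no share over other pairs of genes was computed. The pairs that overlapped were Smc4 to Smc2, Cdca8 and Birc5 to Incenp, Bub1 and Bub1b to Bub3, Nuf2 to Ndc80, Spc25 to Spc24, Kif23 to Racgap1, Ube2c to Cdc20, and Sass6 to Stil.

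The centromere and kinetochore genes had a median log2 fold change of 0.41, with 9 of 9 positive, 2 with an unadjusted p under 0.05 and 1 with groups that did not overlap. Their median was 0.27 without Cxcr4+ replicate 2, 0.27 without both libraries numbered 2, and 0.26 by limma on log2(FPKM + 1). The gene without overlap was Zwilch, a subunit of the complex that brings dynein and checkpoint proteins to the outer kinetochore, with 9.30, 11.6 and 10.1 FPKM in Cxcr4+ libraries, against 7.41, 8.15 and 8.02 FPKM in Cxcr4- libraries. Its log2 fold change was 0.38 (SE 0.09). Knl1, the scaffold on which the checkpoint kinases dock, had 1.38, 1.98 and 1.83 FPKM in Cxcr4+ libraries, against 1.22, 1.17 and 1.44 FPKM in Cxcr4- libraries. The lowest Cxcr4+ library lay below the highest Cxcr4- library, and the log2 fold change was 0.42 (SE 0.17).

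Cenpf, a large protein of the outer kinetochore, had the lowest level of all 48 genes, with 1.80, 1.24 and 1.45 FPKM in Cxcr4+ libraries, against 1.27, 0.943 and 1.14 FPKM in Cxcr4- libraries. Its groups overlapped by a little and its log2 fold change was 0.41 (SE 0.20). The 4 subunits of the Ndc80 complex, which holds the microtubule end, had log2 fold changes of 0.41 (SE 0.23) for Ndc80, 0.39 (SE 0.18) for Nuf2, 0.30 (SE 0.15) for Spc24 and 0.44 (SE 0.35) for Spc25, all with overlapping groups. Libraries of the same group differed widely for Spc25, which had 2.38, 5.39 and 2.53 FPKM in Cxcr4+ libraries, against 1.58, 3.46 and 2.48 FPKM in Cxcr4- libraries. Cxcr4+ replicate 2 stood alone above all the others, and without it the log2 fold change of Spc25 was 0.02. The kinesin Cenpe, which carries chromosomes along the spindle, was at 0.43 (SE 0.30), and the centromeric histone Cenpa at 0.18 (SE 0.17), both with overlap.

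Of the checkpoint genes, Ttk encodes Mps1, the kinase that starts checkpoint signalling, and had 4.66, 4.89 and 4.76 FPKM in Cxcr4+ libraries, against 3.22, 3.73 and 3.62 FPKM in Cxcr4- libraries. Its groups did not overlap and differed by more than their spread, with a log2 fold change of 0.43 (SE 0.10). Bub1, a kinase that loads the other checkpoint proteins, had 15.5, 15.9 and 17.3 FPKM in Cxcr4+ libraries, against 13.3, 11.4 and 14.4 FPKM in Cxcr4- libraries. It too was without overlap, at 0.31 (SE 0.13). Mad2l1, the Mad2 protein that binds and blocks Cdc20, had 3.46, 4.73 and 4.49 FPKM in Cxcr4+ libraries, against 3.06, 3.55 and 3.31 FPKM in Cxcr4- libraries, with a log2 fold change of 0.35 (SE 0.12) and a slight overlap.

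Bub1b, which encodes the checkpoint protein BubR1, had the highest level of all 48 genes, with 33.0, 35.6 and 36.0 FPKM in Cxcr4+ libraries, against 32.2, 29.6 and 35.03 FPKM in Cxcr4- libraries. The groups overlapped and the log2 fold change was 0.10 (SE 0.10). Bub3, the adaptor that brings Bub1 and BubR1 to the kinetochore, had 9.21, 13.8 and 10.2 FPKM in Cxcr4+ libraries, against 9.76, 13.7 and 9.56 FPKM in Cxcr4- libraries, with the library numbered 2 highest in both groups. Its fold change was 0.01 (SE 0.16). It turned to -0.14 when Cxcr4+ replicate 2 was left out, to -0.04 for Cxcr4- replicate 1 and to -0.07 for Cxcr4- replicate 3. Of the 5 checkpoint genes 3 had an unadjusted p under 0.05, and the median was 0.31, or 0.19 without Cxcr4- replicate 2.

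**Figure D2:**
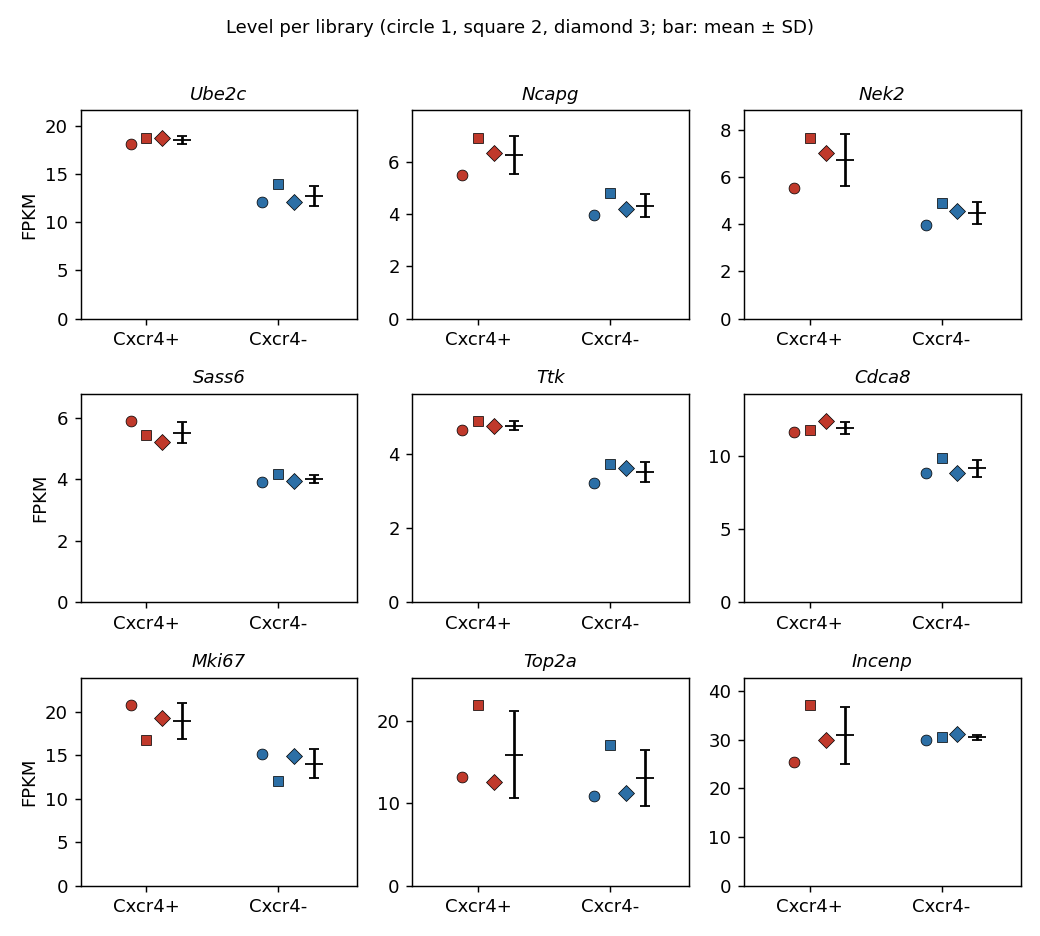
FPKM of 9 genes in each library, Cxcr4+ on the left and Cxcr4- on the right of each panel; the circle, square and diamond are the libraries numbered 1, 2 and 3, and the bar beside them is the mean with its SD (n = 3). Ube2c, Ncapg, Nek2, Sass6, Ttk, Cdca8 and Mki67 have no overlap between groups, while Top2a is highest in both libraries numbered 2 and Incenp has the same mean in both groups within its spread.

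The fold changes of the mitotic kinases were unequal in size, and differences between genes were not tested. Nek2 (chromosome 1, 191553556 to 191565162, forward strand), the kinase that parts the centrosomes at the start of mitosis, had 5.53, 7.68 and 7.01 FPKM in Cxcr4+ libraries, against 3.96, 4.89 and 4.56 FPKM in Cxcr4- libraries. No values overlapped, and its log2 fold change of 0.59 (SE 0.13) was the largest of the 48 genes, with an adjusted p of 0.757 by edgeR. Aurka, the spindle pole kinase, averaged 17.6 ± 1.23 FPKM in Cxcr4+ and 16.8 ± 0.905 FPKM in Cxcr4- libraries (SD, n = 3 each). Its log2 fold change of 0.06 (SE 0.09) was smaller than its error, and that of Plk1, the Polo kinase that acts from the centrosome to cytokinesis, was 0.23 (SE 0.12), both with overlapping groups.

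The chromosomal passenger complex joins the kinase Aurora B with Incenp, survivin and borealin and corrects faulty attachments at the centromere. Cdca8, which encodes borealin, had 11.7, 11.8 and 12.4 FPKM in Cxcr4+ libraries, against 8.84, 9.86 and 8.88 FPKM in Cxcr4- libraries. Its groups did not overlap, with a log2 fold change of 0.38 (SE 0.09). Birc5, which encodes survivin, had 8.53, 10.2 and 8.55 FPKM in Cxcr4+ libraries, against 6.19, 8.67 and 6.27 FPKM in Cxcr4- libraries, with a log2 fold change of 0.37 (SE 0.13) and 1 Cxcr4- library inside the Cxcr4+ range. Incenp, the scaffold of the complex, had 25.4, 37.1 and 29.9 FPKM in Cxcr4+ libraries, against 29.9, 30.4 and 31.1 FPKM in Cxcr4- libraries. Its Cxcr4- values were nearly equal and lay inside the wide range of the Cxcr4+ values, with a log2 fold change of 0.0048 (SE 0.12). Leaving out Cxcr4+ replicate 2 gave -0.11, and leaving out Cxcr4- replicate 2 gave -0.03. Aurkb was at 0.32 (SE 0.15), and the ratio of Aurkb to Incenp FPKM was 0.517, 0.538 and 0.479 in Cxcr4+ libraries, against 0.365, 0.471 and 0.401 in Cxcr4- libraries, without overlap. The ratios of the other subunits to Incenp overlapped, with 0.397 ± 0.0727 in Cxcr4+ and 0.302 ± 0.0198 in Cxcr4- libraries for Cdca8, and 0.299 ± 0.0319 in Cxcr4+ and 0.231 ± 0.0467 in Cxcr4- libraries for Birc5 (SD, n = 3 each). Of the 7 kinase and passenger genes 3 had an unadjusted p under 0.05, and the median was 0.32, or 0.16 without Cxcr4+ replicate 2.

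Of the spindle motors and microtubule proteins 4 of 6 had an unadjusted p under 0.05, with a median log2 fold change of 0.33. Dlgap5 encodes Hurp, which bundles the microtubules next to the chromosomes, and had 5.44, 5.92 and 5.88 FPKM in Cxcr4+ libraries, against 4.14, 4.33 and 4.41 FPKM in Cxcr4- libraries. Both groups were tight and did not overlap, and the log2 fold change was 0.41 (SE 0.09) with an adjusted p of 0.737 by edgeR. Tpx2, the activator of Aurora A on the spindle, had 20.3, 22.0 and 23.9 FPKM in Cxcr4+ libraries, against 18.4, 18.6 and 19.1 FPKM in Cxcr4- libraries, also without overlap, and a log2 fold change of 0.23 (SE 0.10). The ratio of Tpx2 to Aurka FPKM was 1.25, 1.19 and 1.33 in Cxcr4+ libraries, against 1.13, 1.04 and 1.18 in Cxcr4- libraries, the last of the 4 pairs without overlap.

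Kif11, the kinesin that pushes the spindle poles apart, had 2.53, 3.66 and 2.94 FPKM in Cxcr4+ libraries, against 2.08, 2.72 and 2.16 FPKM in Cxcr4- libraries. Kif2c, the kinesin that takes apart microtubules at the centromere, had 3.32, 4.49 and 4.32 FPKM in Cxcr4+ libraries, against 2.70, 3.49 and 2.49 FPKM in Cxcr4- libraries. In each case a Cxcr4- library exceeded the lowest Cxcr4+ library, and the log2 fold changes were 0.39 (SE 0.14) and 0.48 (SE 0.16). The chromosome kinesin Kif4 was at 0.27 (SE 0.16) with overlap. Stmn1, which encodes the microtubule destabiliser stathmin and is expressed in many cells that do not divide, had 30.6, 33.3 and 34.1 FPKM in Cxcr4+ libraries, against 30.6, 28.1 and 28.5 FPKM in Cxcr4- libraries. The closest libraries of the groups were 30.65 FPKM in Cxcr4+ and 30.59 FPKM in Cxcr4-, and the log2 fold change was 0.16 (SE 0.10).

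At the entry into anaphase, Ube2c had the lowest p of the 48 genes. It encodes the ubiquitin-conjugating enzyme that starts the chains made by the anaphase-promoting complex (chromosome 2, 164611818 to 164620742, forward strand). Ube2c had 18.1, 18.8 and 18.8 FPKM in Cxcr4+ libraries, against 12.1, 14.01 and 12.2 FPKM in Cxcr4- libraries. The Cxcr4+ libraries were within 1 FPKM of each other and all above the highest Cxcr4- library, and the log2 fold change was 0.54 (SE 0.09), between 0.51 and 0.57 when any 1 library was left out. Its adjusted p by edgeR was 0.350, and no lower than 0.425 when any 1 library was left out.

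Cdc20, the activator of the complex, had 19.1, 18.9 and 25.1 FPKM in Cxcr4+ libraries, against 17.0, 14.1 and 19.4 FPKM in Cxcr4- libraries. Its groups overlapped by a little, with a log2 fold change of 0.32 (SE 0.19). Sgo1, the shugoshin that guards centromeric cohesin until anaphase, had 2.11, 2.46 and 2.56 FPKM in Cxcr4+ libraries, against 1.97, 1.41 and 1.93 FPKM in Cxcr4- libraries, without overlap, and a log2 fold change of 0.41 (SE 0.20). Securin, encoded by Pttg1, was at 0.43 (SE 0.19), and separase, encoded by Espl1, at 0.21 (SE 0.10), with overlapping groups for both. The 5 genes of anaphase had a median of 0.41, and 1 of them had an unadjusted p under 0.05. This median was 0.25 without Cxcr4- replicate 2 and 0.27 without both libraries numbered 2.

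The genes of the central spindle and of cytokinesis had a median log2 fold change of 0.31. Of these 6 genes, 4 had an unadjusted p under 0.05, beside 2.66% of all genes, and 4 had no overlap between groups, beside 5.5%. Ect2 encodes the exchange factor that activates RhoA at the cell equator and had 5.38, 4.26 and 5.22 FPKM in Cxcr4+ libraries, against 3.21, 2.85 and 4.17 FPKM in Cxcr4- libraries. Kif20a, the kinesin that brings the passenger complex to the midzone, had 7.76, 9.45 and 8.71 FPKM in Cxcr4+ libraries, against 5.90, 5.88 and 6.88 FPKM in Cxcr4- libraries. Their log2 fold changes of 0.53 (SE 0.19) and 0.46 (SE 0.12) were the largest of this group, and for Ect2 the highest Cxcr4- library was just under the lowest Cxcr4+ library. Anln, the anillin scaffold of the contractile ring, had 11.5, 11.3 and 11.9 FPKM in Cxcr4+ libraries, against 8.31, 9.003 and 10.48 FPKM in Cxcr4- libraries, with a log2 fold change of 0.31 (SE 0.11). Racgap1, a partner of Kif23 in centralspindlin, had 7.17, 8.49 and 7.55 FPKM in Cxcr4+ libraries, against 6.08, 5.86 and 6.62 FPKM in Cxcr4- libraries, with a log2 fold change of 0.31 (SE 0.10). Neither gene overlapped between groups, while Kif23 itself was at 0.21 (SE 0.11) with overlap. Prc1, which bundles the antiparallel microtubules of the midzone, had 3.46, 4.48 and 2.60 FPKM in Cxcr4+ libraries, against 2.62, 3.55 and 3.23 FPKM in Cxcr4- libraries. Cxcr4+ replicate 3 was the lowest library of all for this gene, and its log2 fold change of 0.15 (SE 0.18) was -0.01 without Cxcr4+ replicate 2.

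Centriole duplication is set by the kinase Plk4, which recruits Stil and the cartwheel protein Sass6. Sass6 (chromosome 3, 116388631 to 116422913, forward strand) had 5.90, 5.46 and 5.22 FPKM in Cxcr4+ libraries, against 3.92, 4.17 and 3.95 FPKM in Cxcr4- libraries. The groups were tight and apart, with a log2 fold change of 0.46 (SE 0.10) and an adjusted p of 0.737 by edgeR. Plk4 had 3.14, 3.96 and 2.78 FPKM in Cxcr4+ libraries, against 2.03, 2.53 and 2.65 FPKM in Cxcr4- libraries, without overlap, and a log2 fold change of 0.44 (SE 0.15). Stil had 4.07, 4.02 and 4.30 FPKM in Cxcr4+ libraries, against 4.21, 2.24 and 3.28 FPKM in Cxcr4- libraries. Cxcr4- replicate 1 lay inside the narrow Cxcr4+ range, while Cxcr4- replicate 2 was far below it, and the log2 fold change was 0.33 (SE 0.24).

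**Figure D3:**
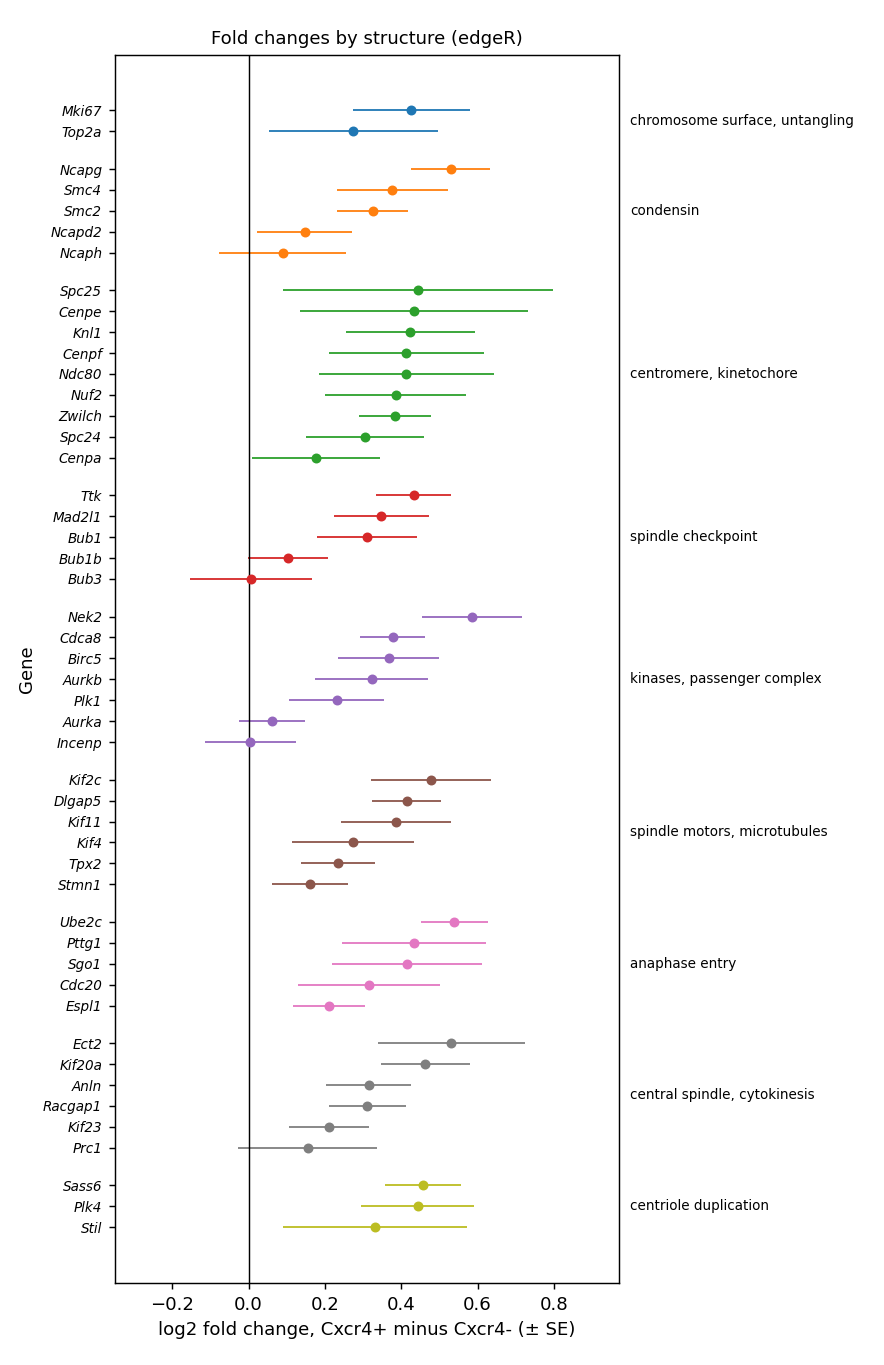
Log2 fold change, Cxcr4+ minus Cxcr4-, of each gene with its standard error in the edgeR fit, grouped by structure. All 48 points are at or right of 0, from 0.0048 for Incenp to 0.59 for Nek2, and the error bars of Bub3, Incenp, Aurka, Ncaph, Prc1 and Bub1b reach 0 or below.

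In 24 of 48 genes the position in the table overlapped that of another listed gene, on the opposite strand for 18. Strand use in counting is not given in the sources used here, so reads from shared stretches cannot be told apart. Among the genes without group overlap, this touched Sass6, whose neighbour Trmt13 averaged 5.66 FPKM, and Kif20a, Ncapg and Cdca8, with neighbours at 2.85, 2.79 and 2.22 FPKM. It also touched Mki67, Smc2, Smc4, Zwilch, Nek2, Tpx2, Ube2c, Anln and Ect2, with neighbours at no more than 0.072 FPKM. Cdc20 overlapped Elovl1, which averaged 26.0 FPKM, above Cdc20 itself. The neighbour was also above the gene for Sass6, which averaged 4.77 FPKM. The same held for Kif4, at 3.195 FPKM beside Pdzd11 at 11.37, and for Kif11, at 2.68 FPKM beside Gm46649 at 2.81. A gene named Kif4-ps is also listed in the table, so reads of Kif4 could have been split.

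The 2 libraries numbered 2 stood apart from the rest of their group in the same way for many of these genes. In both groups the library numbered 2 was the highest of its group for 22 of 48 genes (45.8%), beside 34.0% of all genes tested, and the lowest for 8 of 48 (16.7%), beside 13.9%. The genes highest there included Top2a, Spc25, Nuf2, Ncaph and Bub3, and the genes lowest there were Mki67, Cenpa, Cenpe, Cenpf, Cdc20, Pttg1, Ect2 and Stil. Relative to the mean of libraries 1 and 3, Top2a was at 0.77 on the log2 scale in Cxcr4+ replicate 2 and at 0.62 in Cxcr4- replicate 2, and Cenpe was at -0.62 and -0.78 in the same libraries. For both genes this distance from the other libraries of the group was larger than the difference between the groups. Within number 2 alone, 48 of 48 genes were higher in the Cxcr4+ library, with a median log2 ratio of 0.40. Of the tested genes with a value in both of these libraries, 49.99% were higher there. Within numbers 1 and 3 the counts were 44 and 44 of 48, with medians of 0.33 and 0.27. Over all such genes the shares were 54.19% and 48.74%, with medians of 0.032 and -0.008. Without both libraries numbered 2, 47 of 48 fold changes were positive, with a median of 0.27. What sets these libraries apart was not given in the labels.

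**Figure D4:**
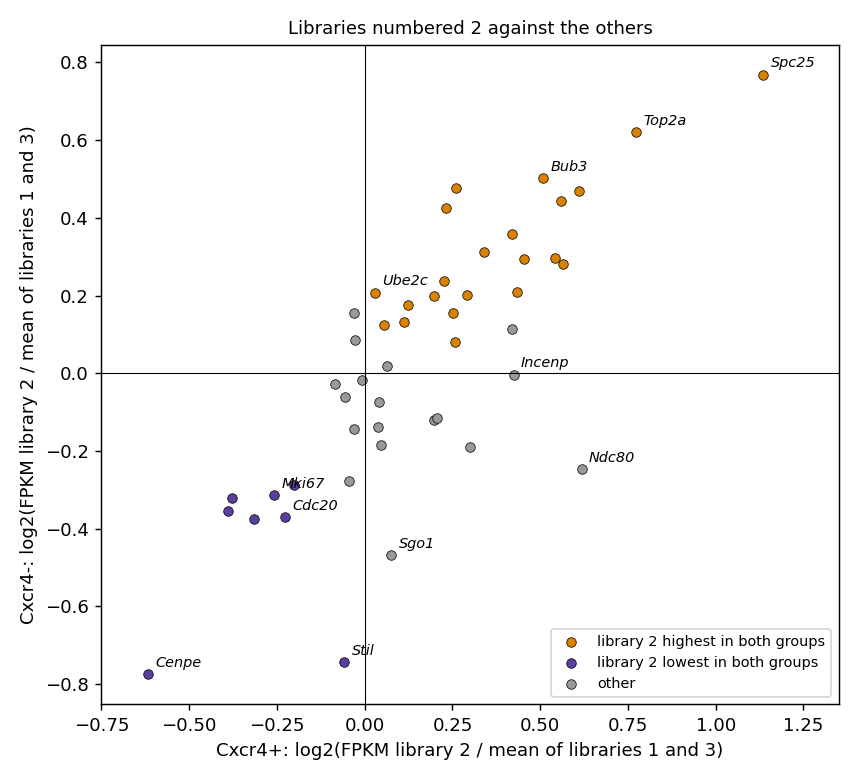
Each point is a gene, placed by log2 of its FPKM in the library numbered 2 over the mean of libraries 1 and 3, in Cxcr4+ (horizontal axis) and Cxcr4- macrophages (vertical axis). Orange points, such as Top2a at 0.77 and 0.62, were highest in library 2 of both groups, purple points, such as Cenpe at -0.62 and -0.78, were lowest there, and grey points were neither.

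Mitotic genes outside the 48, taken from 6 lists, were also mostly higher in Cxcr4+ macrophages. Of 133 found and tested, 114 were positive in log2 fold change and their median was 0.18. By edgeR 0 of 133 passed at an adjusted p under 0.05, beside 0.0312% of all genes. At an unadjusted p under 0.05, 33 were higher, beside 2.66% of all genes, and 1 was lower. In either direction the share of all genes was 4.85%. Limma on log2(FPKM + 1) called 0, where it called 2 of all 16031 genes. DESeq2 called 1, Cdca3, beside 0.187% of its genes called higher. The other centromere and kinetochore genes had 30 of 31 positive and a median of 0.30, and the other spindle and cytokinesis genes 25 of 31 and 0.27. The list of the anaphase-promoting complex had 11 of 16 positive and a median of 0.07. It holds subunits, most of which are present through the whole cell cycle, and also Ube2s and Fbxo5. These genes, at 0.49 and 0.425, do not encode subunits. The other centriole and centrosome genes had 16 of 21 positive and a median of 0.10. The median was 0.17 for the cyclins and Cdk1 regulators and 0.16 for the other condensin and chromosome genes.

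The genes with the 2 lowest p-values of each list are given by their log2 fold change. The kinase Pbk was at 0.44 and cyclin A2, Ccna2, at 0.44. Ska3, which couples kinetochores to shrinking microtubules, was at 0.42, and Cenpp, of the inner kinetochore, at 0.86. Cdca3, a trigger of mitotic entry, had a log2 fold change of 0.49, Cdca5, the cohesin protector sororin, 0.47, the spindle protein Hmmr 0.43 and the kinesin Kif15 0.46. Ube2s, which extends the chains that Ube2c starts, had 20.8, 21.0 and 26.1 FPKM in Cxcr4+ libraries, against 14.9, 15.9 and 17.3 FPKM in Cxcr4- libraries, without overlap. Its log2 fold change was 0.49 (SE 0.13), that of the small subunit Cdc26 was 0.30, and the centriole genes Ccp110 and Rttn stood at 0.62 and 0.40, with overlapping groups for Rttn.

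Foxm1, a transcription factor that drives many G2 and M genes, was lower in Cxcr4+ in fold change. It had 5.58, 4.46 and 5.18 FPKM in Cxcr4+ libraries, against 8.02, 5.56 and 9.30 FPKM in Cxcr4- libraries. Its log2 fold change was -0.60 (SE 0.22) with an adjusted p of 0.998 by edgeR, and its groups overlapped narrowly. It was singled out after its values were seen, as the sole negative gene among the cyclins and Cdk1 regulators. Cdk1 itself, the kinase that starts mitosis, averaged 6.26 ± 1.52 FPKM in Cxcr4+ and 6.14 ± 1.87 FPKM in Cxcr4- libraries (SD, n = 3 each), with a log2 fold change of 0.03 (SE 0.22).

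The 40 DNA replication genes, which act earlier, in S phase, had 37 positive fold changes and a median of 0.22. By edgeR 0 of 40 passed, beside 0.0312% of all genes, and 9 were higher at an unadjusted p under 0.05, beside 2.66%. Limma on log2(FPKM + 1) called 0, where it called 2 of all 16031 genes. DESeq2 called 1, beside 0.187% of its genes called higher. Pcna, the replication clamp, averaged 109.5 ± 8.06 FPKM in Cxcr4+ and 88.6 ± 6.92 FPKM in Cxcr4- libraries (SD, n = 3 each). Its groups did not overlap and its log2 fold change was 0.30 (SE 0.07), while the helicase subunit Mcm2 was at 0.14 (SE 0.14). Whether the mitotic and replication genes differed in their shift was not tested.

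**Figure D5:**
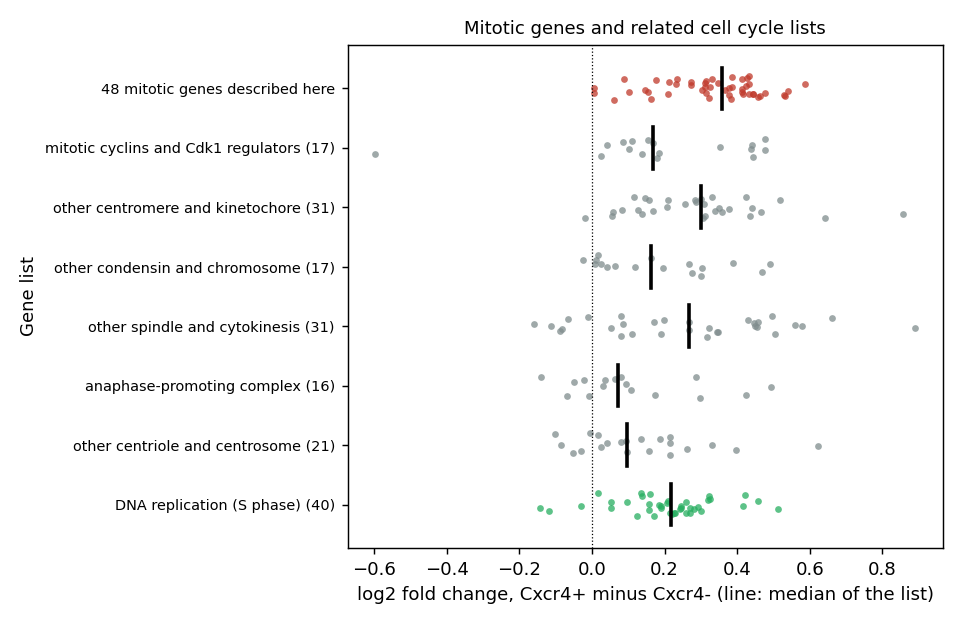
Log2 fold change, Cxcr4+ minus Cxcr4-, of the 48 genes (red), of the 6 lists of other mitotic genes (grey) and of the DNA replication genes (green), with the number of genes in brackets and a line at the median of each list. The medians run from 0.07 for the list of the anaphase-promoting complex to 0.36 for the 48 genes. The point far to the left is Foxm1 at -0.60.

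Markers of other cells that could carry mitotic RNA were mostly low. The 7 fibroblast markers summed to 10.52, 1.09 and 2.22 FPKM in Cxcr4+ libraries, against 1.05, 1.37 and 2.30 FPKM in Cxcr4- libraries, and the 5 tested were all positive. Most of this was in Cxcr4+ replicate 1. Of the 5 tested, Col3a1 and Pdgfra had every Cxcr4+ library above every Cxcr4- library, beside 5.5% of all genes, and 3 overlapped. The 7 tumour and ductal epithelial markers summed to 1.17 to 2.52 FPKM in Cxcr4+ and 2.28 to 4.58 FPKM in Cxcr4- libraries, and all 7 were negative in log2 fold change, with a median of -0.78. Of these 7, 2 had every Cxcr4+ library below every Cxcr4- library, beside 4.87% of all genes, and 5 overlapped. The 8 neutrophil markers summed to 5.05 to 8.01 FPKM in Cxcr4+ and 5.64 to 8.08 FPKM in Cxcr4- libraries, nearly all of it S100a8, with S100a9, Camp and Ngp at 0 in every library. The 8 T and NK cell markers summed to 1.41 to 1.77 FPKM in Cxcr4+ and 1.37 to 1.64 FPKM in Cxcr4- libraries, nearly all of it Lck, with Cd8a, Nkg7 and Ncr1 at 0 throughout. Ighm stood at 30.5 to 35.5 FPKM in Cxcr4+ and 34.4 to 35.1 FPKM in Cxcr4- libraries, while the other 4 B cell markers each averaged under 1 FPKM. Dendritic, endothelial and erythroid markers all averaged under 1 FPKM. The erythroid sum was 0.0404 to 1.26 FPKM in Cxcr4+ and 0.0468 to 0.272 FPKM in Cxcr4- libraries. The 4 endothelial markers tested were all positive, and their sum was 0.220 to 0.391 FPKM in Cxcr4+ and 0.103 to 0.231 FPKM in Cxcr4- libraries, and the dendritic sum was 0.0561 to 0.178 FPKM in Cxcr4+ and 0.126 to 0.145 FPKM in Cxcr4- libraries, with Ccr7 at 0 throughout. The macrophage list summed to 7370 to 9194 FPKM in Cxcr4+ and 6566 to 7835 FPKM in Cxcr4- libraries. The part of these cells, of library depth and of the libraries numbered 2 in the mitotic result was not tested.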

How the data were processed

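RNA of 3 Cxcr4+ and 3 Cxcr4- macrophage libraries was measured as 1 table of genes. The submitters' processing notes name cutadapt, HISAT2 and StringTie with build GRCm39, without versions, annotation release or strand setting. Estimated counts, whole numbers as the authors deposited them, and FPKM by the authors stand side by side, per the file headers. Multiples of 4 made up 43.2% of the counts between 1 and 20 (an even spread gives 25%), so a low count can stand for fewer fragments; FPKM of genes with no count was read as 0. The main test was edgeR 4.0.16, R 4.3.3, on these counts (earlier quasi-likelihood method, TMM scaling, filterByExpr with a minimum count of 10, group as the sole term), with Benjamini-Hochberg adjustment over all 16031 genes tested and a threshold of 0.05. The standard error is the size of the log2 fold change over the square root of F. DESeq2 1.42.0, limma 3.58.1, other scalings and filters, counts divided by 4, blocks and leaving out each library were alternatives. The procedure was tested on simulated data. The labels do not say whether replicate numbers pair the libraries. Same-numbered libraries' deviations from their group means correlated at 0.038, 0.14 and 0.045, and others at -0.089 to 0.052. Such weak correlations cannot settle whether libraries were paired. The genes and lists were chosen with earlier results of these data known. Library values are given for genes with an unadjusted p under 0.05, groups without overlap, or the highest or lowest level of their structure. They are also given for Mki67 and Top2a, and for others singled out after their values were seen (Spc25, Bub3, Stil, Foxm1, Ube2s). Other lists name their 2 genes of smallest p. Of the 134 other mitotic genes listed, 133 were found by symbol in the table; 1, Lin54, was not analysed here. Promoters came from RefSeq, build GRCm38.p6, matched by symbol. Counts and sums over lists include every gene found, but the values of 1 DNA replication gene and 1 marker gene are not reported here.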

Additional observations from a re-analysis of the deposited data

How the results depend on the processing

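Over 18 alternative settings the 48 genes gave 864 fold changes, of which 10 were reversed in sign, in 4 genes. These were the Incenp log2 fold change (-0.00553 with the replicate number as a block, -0.0025 with the libraries numbered 2 as a block, -0.15 without both of these, and -0.11 to 0.11 when any 1 library was left out), Bub3 (-0.14 to 0.15 when any 1 library was left out), Ncaph (-0.0785 to 0.21) and Prc1 (-0.0146 to 0.32). The cause was not tested. The median of the 48 genes was 0.31 to 0.39, and 44 to 48 of them were positive, when any 1 library was left out. The number called was 0 by edgeR in every setting and 7 by DESeq2, which also called 1 of the other mitotic genes, 1 DNA replication gene and 63 genes in all, against 5 by edgeR. The count at an unadjusted p under 0.05 was 35 of 48 with the replicate number as a block and 35 with the libraries numbered 2 as a block, beside 4.93% and 4.99% of all genes called higher, and 13 to 23 when any 1 library was left out, beside 1.84% to 3.05%. The labels do not say whether replicate numbers pair the libraries, and the correlation of deviations exceeded 0.1 for number 2 alone. Cxcr4+ replicate 1 was closest to Cxcr4- replicate 3. Pairing was thus not settled, and the block is a setting and not a known design. With the replicate number as a block edgeR called 0 of all 16031 genes, against 5 without it, and 0 of the 48 genes, of the other mitotic genes and of the DNA replication genes either way. The block on the libraries numbered 2, leaving both of them out, and counting overlap on TMM-scaled counts (24 of 48 without overlap, beside 5.84%) were added after seeing the data. No gene of the 48 had under 289 deposited counts in a library, but these may stand for fewer fragments, and counting error was not compared with the spread between libraries.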
